A study of Danio rerio with 17 samples.

Results

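The genes described here supply histones or help to pack DNA around them: slbp, hist1h2a4, hmgb2b and anp32e. They were chosen by name from the authors' tables of genes that differed between mutant and wild type cells, with their FPKM values (fragments mapped to a transcript, divided by its length and by the size of the library) in view. The 4 names stand on 5 gene IDs, because hist1h2a4 names a pair of IDs, out of 4169 gene IDs listed in either table. Both tables hold slbp and anp32e, and the prdm16 table alone holds hist1h2a4 and hmgb2b. Since measured values chose the members, their differences are a description, with no test of them.

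DNA in the nucleus is wound around histone proteins, and a dividing cell must make new histones while it copies its DNA. The main histone mRNAs end in a stem-loop in place of a poly(A) tail, and the stem-loop binding protein encoded by slbp is needed to process and translate them. The product of hist1h2a4 is the core histone H2A. HMGB proteins such as that of hmgb2b are abundant non-histone proteins that bend DNA, and in mammals ANP32E is a chaperone that takes the variant histone H2A.Z out of chromatin.

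The libraries came from sox10:GFP positive cranial neural crest cells, embryonic cells that build much of the facial skeleton, sorted from pooled zebrafish embryos at 48 hours post fertilization. The groups with RNA values are prdm3-/- mutants (3 libraries), prdm16-/- mutants (2 libraries, replicates 1 and 2) and wild type embryos (3 libraries). All carry the sox10:GFP marker, and the labels name no other allele or treatment. The descriptions carry the word cleaned, which they do not explain, for both prdm16 mutant libraries, prdm3 mutant replicate 2 and wild type replicate 1, so its part in the prdm16 comparison was not tested. The prdm3 table sets 3 mutant libraries against wild type replicates 2 and 3, and the prdm16 table sets 2 mutant libraries against all 3 wild type libraries, so the comparisons share controls. The descriptions name wild type replicates 1 and 2 after the prdm3 line and replicate 3 after the prdm16 line. Nothing in the labels says that replicates came from separate clutches, so their spread may be technical. In bulk RNA, fewer cells of a type and less RNA per cell cannot be told apart.

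The authors' deposited table for prdm3 lists 1520 of 11242 genes tested at an unadjusted p below 0.05 (13.5% called), 1432 higher (12.7%) and 88 lower (0.783%) in the mutant. There 12 rows (0.107%) were at 0 in every prdm3 mutant library, and 3 rows (0.0267%) passed q below 0.05. The authors' deposited table for prdm16 lists 2990 rows of 10623 genes tested at q below 0.05 (28.1% called), 78 higher (0.734%) and 2912 lower (27.4%). Of the lower rows, 2540 (23.9% of genes tested) stood at 0 in both mutant libraries, among them genes that every cell uses, such as the proteasome subunit gene psma4. A 0 can therefore be a failed estimate, and read depth is unknown. Against these shares, both members in the prdm3 table were listed higher, and in the prdm16 table anp32e was higher and the other 4 gene IDs lower. Nothing is read from that, since the same comparisons chose the members. The median difference over all listed rows, in log2(FPKM + 1), was 0.62 in the prdm3 table and -1.98 in the prdm16 table. Neither targeted gene is listed, so the genotype labels were not checked there. Of 14 neural crest and arch markers, prrx1a alone was listed in the prdm3 table (30.3 to 37.0 FPKM in prdm3 mutants, against 21.99 to 25.4 in wild type). In the prdm16 table foxd3 alone was listed (0 in both prdm16 mutants, against 3.10 to 3.40 in wild type), so the cell type label could not be checked at the others.

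**Figure D1:**
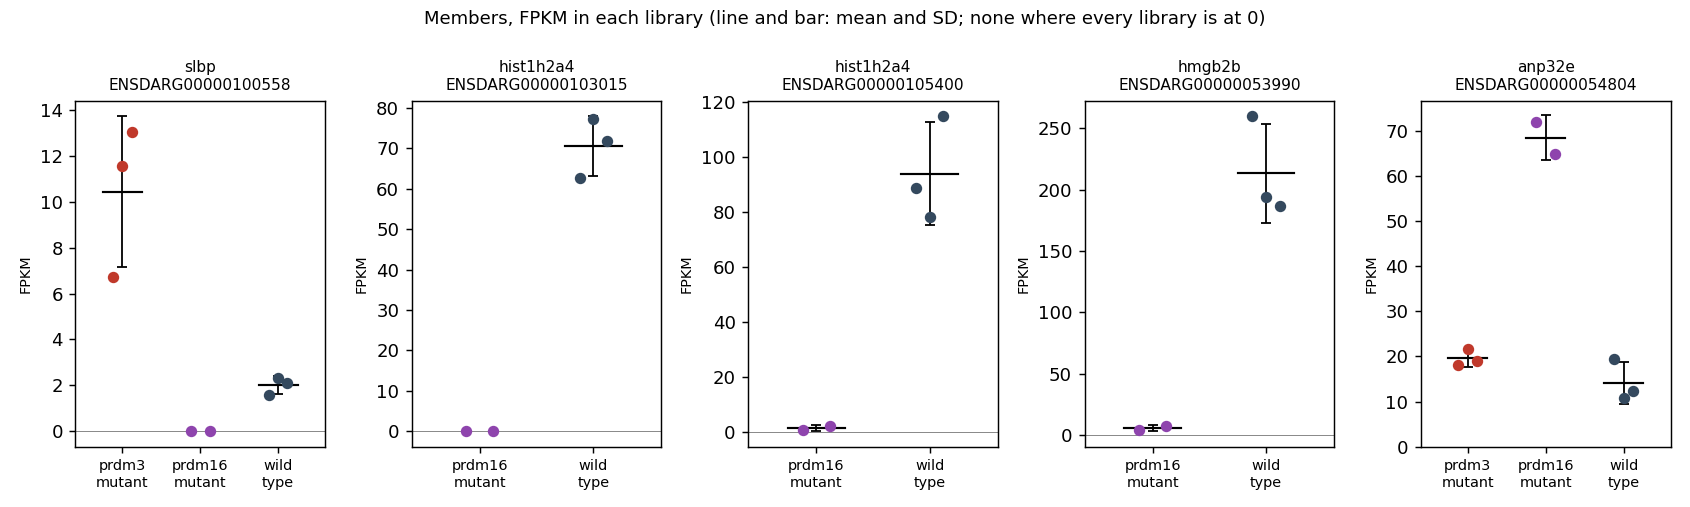
FPKM of each member by gene ID, with 1 point per library in prdm3 mutants (red), prdm16 mutants (purple) and wild type cells (dark blue), and the mean and SD where a library is above 0. The slbp gene was high in prdm3 mutants and at 0 in prdm16 mutants, the hist1h2a4 IDs and hmgb2b were near or at 0 in prdm16 mutants, and anp32e was highest in prdm16 mutants.

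The stem-loop binding protein gene slbp (ENSDARG00000100558) was high in prdm3 mutants and listed at 0 in prdm16 mutants. Its level was 6.73, 11.6 and 13.04 FPKM in prdm3 mutant replicates 1, 2 and 3, and 0 in both prdm16 mutant libraries, against 1.57, 2.32 and 2.11 FPKM in wild type replicates 1, 2 and 3. Every prdm3 mutant library lay above, and both prdm16 mutant libraries lay below, all 3 wild type libraries. The threshold for listing favours such separation within each table, and the share of all rows without overlap was not counted. In the prdm3 table slbp averaged 10.4 ± 3.30 FPKM in the mutant (SD, n = 3) and 2.22 ± 0.148 FPKM in wild type cells (SD, n = 2), a ratio of 4.71. The difference in log2(FPKM + 1) was 1.79 ± 0.34 (SE), the fifth largest toward the mutant in the table (rank 5 of 1432 higher rows). The authors' deposited table gives slbp q = 0.296 in prdm3 mutants, where it was listed by its unadjusted p-value and not by q. In prdm16 mutants the q-value, by which slbp was listed, was 0.0148. Within prdm3 mutants the highest library was 1.94 times the lowest, against 1.099 times between wild type replicates 2 and 3. Wild type replicate 1, which the prdm3 table leaves out, was the lowest of the wild type libraries, and with it the prdm3 difference was 1.89.

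Other genes on a list for histone mRNA formation, which also holds general mRNA processing genes, were listed too. Of its 21 genes, slbp included, 6 (28.6%) were higher in prdm3 mutants and 0 lower. Beside them, 12.7% of all genes tested were listed higher. The histone gene transcription factor npat had 4.76, 5.21 and 5.88 FPKM in prdm3 mutants, against 2.12 and 2.30 FPKM in wild type replicates 2 and 3. The endonuclease subunit gene cpsf3, whose product cuts histone pre-mRNA, had 7.96, 9.62 and 9.27 FPKM in prdm3 mutants, against 3.70 and 5.14 FPKM in the same wild type libraries. These groups do not overlap, which the threshold for listing favours in any gene. For cpsf3, wild type replicate 1 stood at 7.02 FPKM, below every prdm3 mutant library but above the other wild type libraries. The partner of the cap-binding complex, srrt, averaged 8.16 ± 0.891 FPKM in prdm3 mutants (n = 3) and 5.20 ± 0.309 FPKM in wild type cells (SD, n = 2). In wild type replicate 1, however, srrt stood at 10.1 FPKM, above every prdm3 mutant library. In prdm16 mutants 7 of the 21 genes (33.3%) were lower, 5 of them at 0 in both mutant libraries, beside 27.4% of all genes tested that were listed lower. The 3' end processing genes cstf2 (0.106 and 0 FPKM, against 15.0, 14.3 and 15.0 in wild type), cpsf2 (0 and 0, against 26.8, 16.9 and 14.7) and cstf1 (0 and 0, against 11.0, 6.44 and 7.80) were among them. Their share is close to that of all genes tested.

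The H2A gene rows named hist1h2a4 were near or at 0 in prdm16 mutants. For ENSDARG00000105400 the level was 0.576 and 2.18 FPKM in prdm16 mutant replicates 1 and 2, against 88.7, 78.4 and 114.9 FPKM in wild type replicates 1, 2 and 3. It averaged 1.38 ± 1.13 FPKM in prdm16 mutants (n = 2) and 94.0 ± 18.8 FPKM in wild type cells (SD, n = 3), a difference of -5.39 ± 0.43 (SE) in log2(FPKM + 1). For ENSDARG00000103015 the level was 0 in both prdm16 mutant libraries, against 62.8, 77.3 and 71.8 FPKM in wild type replicates 1, 2 and 3. Neither ID overlaps between the groups, which the threshold for listing favours, and the share of all rows without overlap was not counted. The authors' deposited table gives q = 0.0127 for the first ID and q = 0.00229 for the second. The name itself is uncertain. The table of gene IDs calls ENSDARG00000103015 hist1h2a2 and ENSDARG00000105400 si:ch73-368j24.14, and the ID that it calls hist1h2a4 is not listed. Histone genes come in many near-identical copies, 10 of them with a hist1h2a symbol in the table of gene IDs, and reads may be split among copies, so each level is uncertain.

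**Figure D2:**
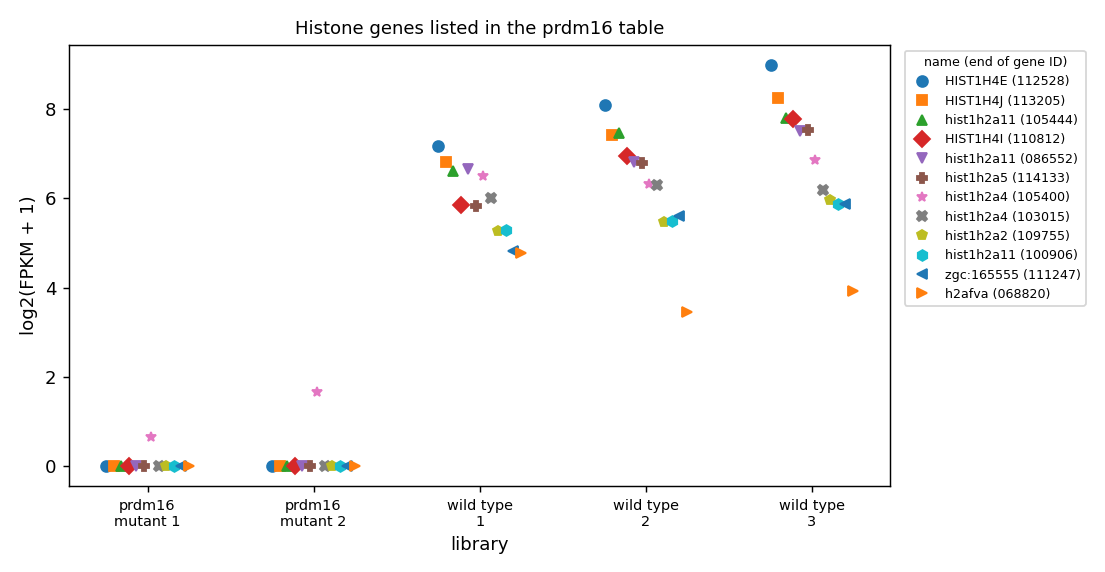
Level in log2(FPKM + 1) of the 12 rows of the prdm16 table matched by histone name, in each library. The prdm16 mutant replicates 1 and 2 are at the left and wild type replicates 1 to 3 at the right, with 1 symbol per gene ID. In prdm16 mutants all of these rows but 1 hist1h2a4 ID stood at 0, and 10 of the 12 rows were highest in wild type replicate 3.

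The 12 rows of the prdm16 table matched by a histone symbol pattern were all lower in the mutant. Of them 11 stood at 0 in both mutant libraries, ENSDARG00000105400 being the exception. The pattern misses histone rows with other names, so the counts hold for the matched rows only. One unmatched row, si:ch1073-159d7.7, which the table of gene IDs calls h1l1, had 0.229 and 2.62 FPKM in prdm16 mutants. Of all 2990 listed rows, 2912 were lower and 2540 stood at 0 in both, so nothing particular to histones is read from these counts. Histone rows that were not listed have no values here. By symbol, the 12 rows are 7 rows of H2A, 4 rows of H4 (zgc:165555 among them, which the table of gene IDs calls hist1h4l) and the variant gene h2afva. In 11 of the 12 rows the name differs from that in the table of gene IDs. There the H2A row hist1h2a11 (ENSDARG00000086552) is called h2ax2, so these classes are uncertain. Wild type means ran from 46.5 to 163.7 FPKM in the H2A rows and from 44.1 to 306.5 FPKM in the H4 rows. The H4 row HIST1H4E, named like zgc:165555 after its values were seen, held the highest wild type level, 0 in both prdm16 mutants against 143.1, 270.3 and 506.1 FPKM in wild type replicates 1, 2 and 3. Among the wild type libraries, 10 of the 12 rows were highest in replicate 3 and 10 of the 12 lowest in replicate 1. The share of all listed rows in that order was not counted. Near-identical copies may also share reads, so the rows are not separate observations. Between the highest and the lowest wild type library the hist1h2a4 IDs varied by 1.47 and 1.23 times, and the other histone rows by 1.49 to 3.87 times.

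In the prdm3 table the symbol pattern matched no core histone row. The histone gene that it matched was h2afva, which encodes a variant of the H2A.Z type made outside DNA copying as well. It had 25.3, 26.4 and 32.5 FPKM in prdm3 mutants, against 10.02 and 14.1 FPKM in wild type replicates 2 and 3. The third wild type library stood at 26.3 FPKM, inside the range of the mutants. In prdm16 mutants h2afva was listed at 0 in both libraries.

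The gene hmgb2b (ENSDARG00000053990) was one of the most abundant genes of the prdm16 table in wild type cells and was low in prdm16 mutants. Its level was 3.88 and 7.33 FPKM in prdm16 mutant replicates 1 and 2, against 259.9, 193.9 and 186.5 FPKM in wild type replicates 1, 2 and 3. The groups do not overlap, with the same limit as for the hist1h2a4 IDs, and the wild type mean stood at percentile 99.5 of all listed rows. It averaged 5.61 ± 2.44 FPKM in prdm16 mutants (n = 2) and 213.4 ± 40.4 FPKM in wild type cells (SD, n = 3), which is 38.1-fold lower in the mutant. The difference was -5.06 ± 0.35 (SE) in log2(FPKM + 1), and the authors' deposited table gives q = 0.0107. Wild type replicate 1, described as cleaned like both prdm16 mutants, is among the wild type libraries by which hmgb2b was listed. The part of that label was not tested. Among rows above 0 in both prdm16 mutant libraries, the difference of hist1h2a4 (ENSDARG00000105400) ranked 4 and that of hmgb2b ranked 5 from the largest toward wild type. Wild type replicate 1 was the highest library for hmgb2b and the lowest for most histone rows.

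Of 21 genes for HMG proteins, 2 (9.52%) were lower in prdm16 mutants and 0 higher, beside 27.4% of all genes tested that were listed lower. In prdm3 mutants 4 of the 21 (19.0%) were higher and 0 lower, beside 12.7% of all genes tested listed higher, and hmgb2b was not among them. Its paralog hmgb2a had 247.1, 305.3 and 284.4 FPKM in prdm3 mutants, against 183.7 and 189.8 FPKM in wild type replicates 2 and 3, a wild type level like that of hmgb2b. The AT-hook gene hmga1a had 679, 889 and 752 FPKM in prdm3 mutants, against 423 and 454 FPKM in the same wild type libraries. The low gene hmgb3b averaged 6.45 ± 0.750 FPKM in prdm3 mutants (n = 3) and 2.29 ± 0.218 FPKM in wild type cells (SD, n = 2). The AT-hook gene hmga2 averaged 133.6 ± 2.81 FPKM in prdm3 mutants (n = 3) and 99.7 ± 10.8 FPKM in wild type cells (SD, n = 2).

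The chaperone gene anp32e (ENSDARG00000054804) was high in prdm16 mutants, and in prdm3 mutants its level overlapped that of the full set of wild type libraries. It had 18.1, 21.7 and 18.9 FPKM in prdm3 mutant replicates 1, 2 and 3, and 72.0 and 64.9 FPKM in prdm16 mutant replicates 1 and 2, against 19.5, 10.7 and 12.4 FPKM in wild type replicates 1, 2 and 3. Both prdm16 mutant libraries lay above every other library, with the same limit from the threshold for listing as for slbp. The prdm3 mutants lay above wild type replicates 2 and 3, the libraries of their table, and on both sides of wild type replicate 1. In the prdm16 table anp32e averaged 68.5 ± 5.02 FPKM in the mutant (n = 2) and 14.2 ± 4.67 FPKM in wild type cells (SD, n = 3), a ratio of 4.82 and a difference of 2.23 ± 0.32 (SE) in log2(FPKM + 1). It ranked 27 of the 78 higher rows, and the authors' deposited table gives q = 0.0293. In the prdm3 table it averaged 19.6 ± 1.90 FPKM in the mutant (n = 3) and 11.6 ± 1.16 FPKM in wild type cells (SD, n = 2), a ratio of 1.69 and a difference of 0.71 ± 0.12 (SE). The authors' deposited table gives q = 0.295 there. That difference is close to the median of all listed rows, 0.62, and falls to 0.47 with wild type replicate 1 added, a choice made after the values were seen. With each library scaled by its median ratio over the listed rows above 0 in every library, the anp32e difference was 0.0034 in prdm3 mutants and 1.05 in prdm16 mutants, and that of slbp was 1.19 in prdm3 mutants. Of the 1487 prdm3 rows used for the scaling 1424 were higher, with a median difference of 0.62, so the scaling takes about that much from any gene by construction. In the prdm16 table the scaling rested on 128 rows, 77 higher and 51 lower, with a median difference of 1.26. It too lowers any gene by construction. FPKM gives a share of each library, so levels per cell were not measured.

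The other ANP32 genes were listed in prdm3 mutants. There anp32b had 54.0, 61.3 and 67.6 FPKM, against 29.8 and 32.8 FPKM in wild type replicates 2 and 3. For anp32a, named here after its values were seen, the level was 69.1, 89.9 and 72.4 FPKM in prdm3 mutants, against 45.8 and 49.0 FPKM in wild type. Neither is listed in the prdm16 table. Together with the complexes that exchange H2A.Z, 9 of 29 genes (31.0%) were higher in prdm3 mutants and 0 lower, beside 12.7% of all genes tested listed higher. Among them were the acetyltransferase gene kat5b (5.25 ± 0.338 FPKM in prdm3 mutants, n = 3, and 2.42 ± 0.286 FPKM in wild type cells, SD, n = 2) and the ATPase gene srcap, which deposits H2A.Z (18.1 ± 1.48 and 12.5 ± 0.235 FPKM, same groups). In prdm16 mutants anp32e was the 1 higher gene of these 29, and 6 (20.7%) were lower, 5 of them at 0 in both mutant libraries. Beside them, 27.4% of all genes tested were listed lower, and list genes that were not tested lower the list share. The remodelling ATPase gene ino80 stood at 0 in both prdm16 mutants, against 7.18, 6.74 and 5.03 FPKM in wild type replicates 1, 2 and 3. So did dmap1 (5.46, 4.67 and 4.90 FPKM in wild type) and epc1a (4.11, 4.37 and 4.85 FPKM), subunits of the same acetyltransferase complex as kat5b. The paralog epc2 had 0.0580 and 0 FPKM in prdm16 mutants, against 11.1, 8.25 and 7.88 FPKM in wild type.

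**Figure D3:**
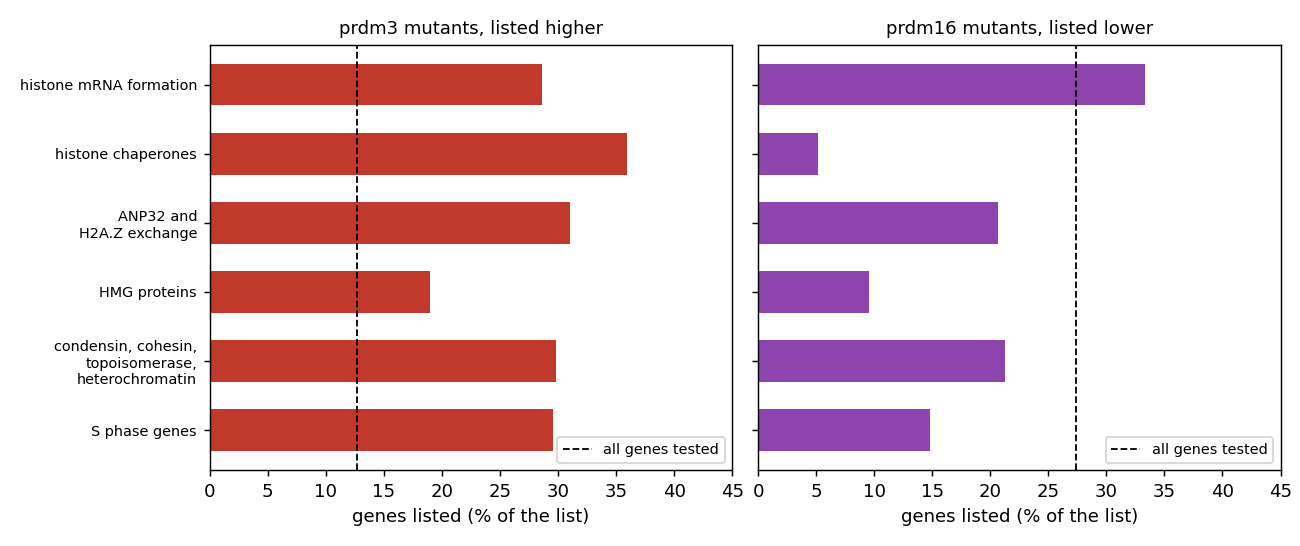
Share of each list of genes that was listed higher in prdm3 mutants (left) and lower in prdm16 mutants (right), in percent of the list, with a dashed line at the share of all genes tested (12.7% and 27.4%). In prdm3 mutants the shares run from 19.0% to 35.9%, and in prdm16 mutants from 5.13% to 33.3%. List genes that were not tested count in these shares and lower them.

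Histone chaperones carry new and old histones. Of 39 genes, 14 (35.9%) were higher and 0 lower in prdm3 mutants, beside 12.7% of all genes tested listed higher. In prdm16 mutants 2 (5.13%) were lower, beside 27.4% of all genes tested listed lower, and the lists were not tested against each other. The chaperone gene setb had 81.8, 87.3 and 83.9 FPKM in prdm3 mutants, against 53.4 and 55.1 FPKM in wild type replicates 2 and 3. The H3.3 chaperone gene daxx had 17.4, 18.2 and 17.0 FPKM in prdm3 mutants, against 9.11 and 11.4 FPKM in wild type. Means were 5.77 ± 0.217 FPKM in prdm3 mutants and 3.86 ± 0.0843 FPKM in wild type cells for ubn2a and 8.81 ± 0.483 and 5.86 ± 0.420 FPKM for the elongation factor gene supt6h (SD, n = 3 and 2). In prdm16 mutants the importin gene ipo4 stood at 0, against 1.87, 1.80 and 1.79 FPKM in wild type, and npm3 at 0, against 2.16, 4.28 and 2.46 FPKM.

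Genes of condensin, cohesin, topoisomerases and heterochromatin shape chromosomes at a larger scale. Of 47 genes, 14 (29.8%) were higher and 2 (4.26%) lower in prdm3 mutants, beside 12.7% and 0.783% of all genes tested. The heterochromatin protein gene cbx5 had 120.4, 109.0 and 111.5 FPKM in prdm3 mutants, against 82.9 and 80.4 FPKM in wild type replicates 2 and 3. In the prdm16 table it had 18.4 and 28.5 FPKM in the mutant, against 105.4, 82.9 and 80.4 FPKM in wild type. Of the 10 genes of this list that the prdm16 table holds, it was the 1 above 0 in the mutant. The condensin subunit gene smc2 averaged 1.73 ± 0.121 FPKM in prdm3 mutants (n = 3) and 0.871 ± 0.0201 FPKM in wild type cells (SD, n = 2). In wild type replicate 1, outside these groups, smc2 stood at 1.36 FPKM. Among cohesin subunits smc1al was at 31.7 ± 1.38 and 22.5 ± 1.95 FPKM and stag2a was at 3.89 ± 0.0898 and 3.22 ± 0.0858 FPKM in the same groups. The 2 lower genes, named after their values were seen, were the heterochromatin protein genes cbx1a and cbx3b. In prdm16 mutants 10 of the 47 (21.3%) were lower and 9 of these stood at 0, beside 27.4% of all genes tested listed lower and 23.9% at 0. The nuclear envelope genes tmpoa (14.8, 11.3 and 10.9 FPKM in wild type) and tmpob (14.3, 13.9 and 15.1 FPKM) were at 0 in both prdm16 mutants, as were rcc1 and waplb.

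**Figure D4:**
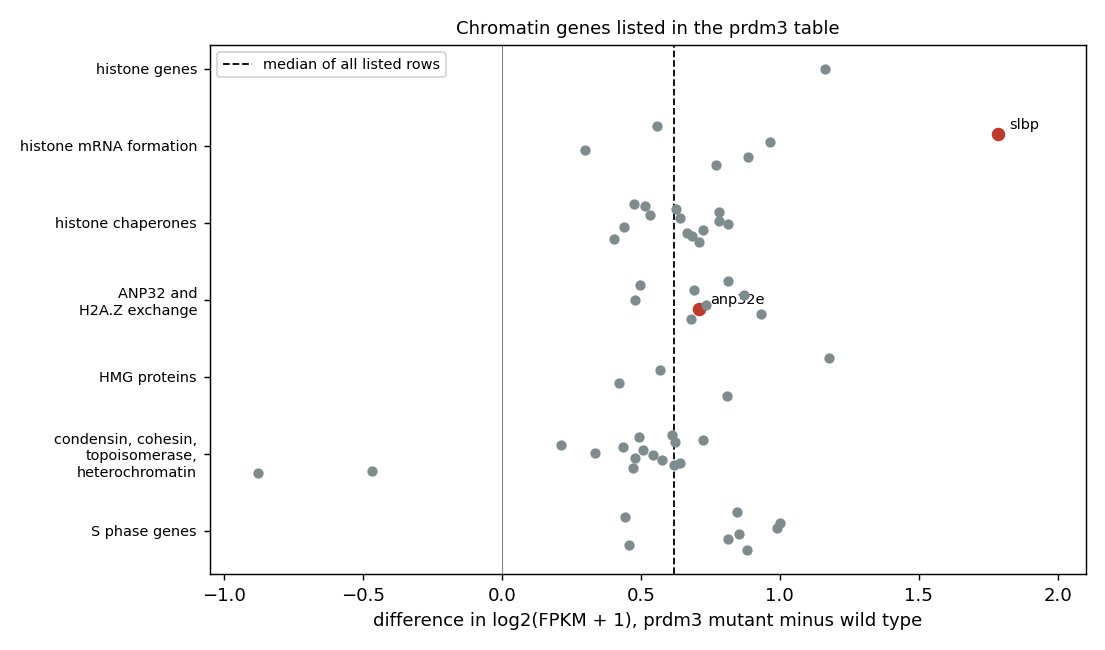
Difference in log2(FPKM + 1), prdm3 mutant minus wild type, of each gene of the lists that the prdm3 table holds, with slbp and anp32e in red and the median of all listed rows, 0.62, as a dashed line. The slbp point stands apart at 1.79, and anp32e lies near the dashed line at 0.71.

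Over the 5 lists above and the histone genes together, 50 genes were listed in prdm3 mutants, 48 higher and 2 lower, beside 1432 higher and 88 lower over all listed rows, with a median difference of 0.62, the same to 2 decimals as that of all listed rows. In the authors' deposited table, none of these passed q below 0.05 (0 genes). The count of higher genes rests on few libraries. Recomputed at p below 0.05, it was 33 without prdm3 mutant replicate 1, 28 without mutant replicate 2 and 26 without mutant replicate 3. Without either wild type library the group is left with 1 library, so no count is given. All listed rows were chosen at that threshold, so leaving out a library tends to lower any such count. The same recount over all listed rows was not made, so whether the fall is particular to chromatin genes is not known. In prdm16 mutants 40 rows were listed, 1 higher and 39 lower, beside 78 higher and 2912 lower over all listed rows. Their median difference was -2.93, beside -1.98 over all listed rows. For the 33 at 0 in both mutant libraries the difference is set by the wild type level alone, so the medians do not compare losses, and 6 lower genes are left without them. For 11 of the genes listed in prdm3 mutants, the prdm16 table gives wild type replicate 1 as well. It lay on the side of the other wild type libraries in 5 (slbp, cpsf3, smc2, cbx5 and tmpob), inside the range of the prdm3 mutants in 5 (anp32e, h2afva, ino80b, tmpoa and cbx3b, ino80b being named after its values were seen) and beyond them in 1 (srrt). Over all 339 such genes the counts were 249, 52 and 38.

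Genes that copy DNA were listed as well. Of 27 S phase genes, 8 (29.6%) were higher and 0 lower in prdm3 mutants, beside 12.7% of all genes tested listed higher. Among them was the helicase gene mcm6 (11.4, 11.2 and 10.5 FPKM, against 5.31 and 4.82 FPKM in wild type). The sliding clamp gene pcna had 86.4, 115.4 and 101.7 FPKM in prdm3 mutants, against 44.7 and 55.4 FPKM in wild type replicates 2 and 3. In the same groups rpa1 averaged 21.2 ± 2.91 and 11.3 ± 0.807 FPKM, and cdc45 averaged 3.61 ± 0.653 and 1.49 ± 0.288 FPKM (SD, n = 3 and 2). In prdm16 mutants 4 of the 27 (14.8%) were lower, beside 27.4% of all genes tested listed lower. List genes that were not tested count in the list share and lower it. The thymidylate synthase gene tyms was at 0 in both mutants, against 6.56, 7.66 and 6.53 FPKM in wild type, as were gins3 and mcm5. The clamp-binding gene pclaf had 4.03 and 0 FPKM, against 72.2, 79.2 and 83.1 FPKM in wild type. The part of DNA copying in the levels of slbp and the histone rows was not tested. Among markers of other cells, 2 of 7 pigment genes, dct and tyrp1b, were higher in prdm3 mutants, with a summed level of 24.7 to 32.9 FPKM in the mutant and 6.53 to 14.8 FPKM in wild type. The lens genes crygm2d9 and cryba1b, 2 of 4, were lower, at 0 to 0.705 FPKM in prdm3 mutants and 3.24 to 4.17 FPKM in wild type. Over all genes tested, 12.7% were listed higher and 0.783% lower in prdm3 mutants. The part of these markers in the values above was not tested.

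The listed genes whose profile lay nearest to each member were found from log2(FPKM + 1) minus the wild type mean, by Euclidean distance over the 5 libraries of a table. In the prdm3 table si:dkey-15h8.16 lay nearest to slbp, at a distance of 0.199, and the next, zgc:103508, FP074902.2, fam174b and mrpl34, lay at 0.577 to 0.809. Among the nearest to anp32e in that table were the splicing factor gene srsf2a, at 0.0322, and cast, elavl1a and ddx19, at up to 0.0775. The nearest to anp32e in the prdm16 table were the nuclear import gene tnpo2, at 0.334, and arhgap33, mib1, phf3 and ddx61, at up to 0.487. For slbp in that table they were SHKBP1, osbp, pcnxl4, pik3r4 and plcl1, all at 0 in both prdm16 mutants like slbp. Among the nearest to hmgb2b were calm1a, zgc:114046, nfkbiab and psma4, at 0.589 to 0.739. Of these, calm1a, nfkbiab and psma4 stood at 0 in both prdm16 mutants, unlike hmgb2b. Their wild type levels were far lower, as for calm1a at 34.0, 29.8 and 26.3 FPKM. With the pseudocount of 1 such genes can lie near hmgb2b, so a small distance is no sign of a like level.

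Some of the nearest to the hist1h2a4 IDs lie close to histone genes. For ENSDARG00000105400 they were si:ch1073-159d7.7 (0.413), which the table of gene IDs calls h1l1, zgc:114046, zgc:171759, zgc:173587 and the transcriptional inhibitor gene id2a (0.765). For ENSDARG00000103015 they were the signal recognition particle RNA gene RF00017 (0.298), zgc:173552, zgc:163061, zgc:173585 and a second ID named zgc:165555 (0.826). Among the nearest to ENSDARG00000105400, zgc:173587 and id2a stood at 0 in both prdm16 mutants, unlike that ID. The gene zgc:171759 had 0.879 and 3.30 FPKM in prdm16 mutant replicates 1 and 2, against 145.1, 138.8 and 170.3 FPKM in wild type, a low remainder like that of ENSDARG00000105400. In the gene order of RefSeq (assembly GRCz12tu), examined after these genes were found and matched by symbol, zgc:114046, zgc:173552 and zgc:173585 lie 3, 4 and 5 genes from the closest gene with a histone symbol. For zgc:173587 and zgc:163061 the closest such symbol is 1692 and 1697 genes away. Histone genes under names outside the symbol pattern were passed over. These distances therefore depend on naming and do not show that a gene lies far from histone genes.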

How the data were processed

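RNA-seq values were used for 8 of 9 RNA libraries, and the third prdm16 mutant library is not analysed here. Per the submitters' processing notes, TopHat2 2.1.1, Cufflinks and the build danRer11 were used, and the labels name total RNA and a Pico input kit without stating poly(A) selection. The authors deposited 1 table per mutant with FPKM values per library, a signed fold score and a p-value with its q-value, and kept only genes past a threshold. The FPKM unit is taken from the naming of Cufflinks. An equal-variance test on log2(FPKM + 1) gave the authors' p-value within 1% in all 1520 and 2990 rows, and the numbers of genes tested follow from the p-value and q-value as deposited. No model over all genes could be fitted, so counts rest on the authors' calls.

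Differences and SEs are on log2(FPKM + 1), a pseudocount of 1, which understates the change of low genes. Wild type values agreed within 0.01 in 338 of 339 genes held by both tables, and every library column was used (0 unused). Symbols came from the tables, and 1486 of 1520 (prdm3) and 2911 of 2988 (prdm16) IDs were also found in a table of gene IDs. The members, the 6 chromatin lists (histone genes by a symbol pattern, and 5 fixed lists), the S phase list and the markers were chosen with earlier results of these data known. List members that were not tested count in the shares. Named genes are the members, up to 4 listed genes per list and table with the smallest q, and the 5 nearest profiles per member, and others are marked. A few genes that this rule names are not reported here. Alternatives were run with limma 3.58.1 in R 4.3.3, pandas 2.3.3 and scipy 1.17.1, and the tests were tried on simulated data. The ATAC peaks and the planned test of promoter peaks are not used here, because gene positions on the build of the peaks were not at hand. No sequences are given for the same reason.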

Additional observations from a re-analysis of the deposited data

Results flagged for a closer look

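Among the members, slbp was picked out by the order of its libraries. Every prdm3 mutant library lay above, and every prdm16 mutant library below, all wild type libraries. The slbp difference in log2(FPKM + 1) was 1.79 in prdm3 mutants. Both prdm16 mutant libraries were listed at 0, against 1.57 to 2.32 FPKM in wild type. The difference between the mutants was not tested, the comparisons share wild type libraries, and slbp was chosen with these values known. Only the members were screened, but cpsf3, smc2, tmpob and cbx5 lay the same way, so the pattern is not particular to slbp. Of 309 genes higher in prdm3 mutants and held by both tables, wild type replicate 1 lay below all prdm3 mutant libraries in 224. It lay inside their range in 49 and above it in 36. Of 2990 listed prdm16 rows, 2912 were lower. How many genes held by both tables show both sides of the pattern was not counted.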

How the results depend on the processing

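The log2 difference of the members was recomputed 72 times over the alternatives. None turned its direction, 61 moved by less than 1 SD of the libraries and 11 by more. Many of these values could not move. The limma fits without a block return the plain mean difference, and leaving out a mutant library changes nothing where both stand at 0. Each fit with the replicate block repeated the value got by leaving out 1 library. The tally is therefore no measure of robustness. Scaling each library by its median ratio over the listed rows moved every member, lowering all differences, and a pseudocount of 0.1 moved those at or near 0. In prdm3 mutants, the counts over the 6 chromatin lists were 48 higher and 2 lower genes. At q below 0.05 there were 0 higher and 0 lower, at an unadjusted p below 0.01 there were 13 higher and 0 lower, and with a higher group mean of 5 or more 0 lower ones were left. Leaving out 1 library gave 18 to 33 higher and 0 to 1 lower genes. In prdm16 mutants, with 1 higher and 39 lower genes, q below 0.01 left 0 higher and 13 lower, and 6 lower genes were above 0 in at least 1 library of each group. Leaving out 1 wild type library gave 39 lower genes and 1 higher gene. Where leaving out a library left its group with 1 library, no count is given.

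With the replicate number of the titles as a replicate block (limma on the listed rows), 45 higher and 2 lower chromatin genes passed p below 0.05 in prdm3 mutants, and 1 higher and 39 lower in prdm16 mutants. Over all listed rows the count was 1415 with the block and 1471 without it in the prdm3 table, and 2988 and 2990 in the prdm16 table. The numbers do not pair the libraries: each comparison shares 2 numbers, and deviations of same-numbered libraries correlated at -0.0487 and -0.0267 in the prdm3 table and at 0.00932 and -0.113 in the prdm16 table. The descriptions start with another number, of unstated meaning: replicate 2 of either mutant and wild type replicate 1 carry a 3, while prdm3 mutant replicate 3 and wild type replicates 2 and 3 carry a 4. Each comparison shares 1 of these numbers only, and no block was fitted on it. Within it slbp had 13.04 FPKM in the prdm3 mutant, against 2.32 and 2.11 in wild type, and anp32e 64.9 FPKM in the prdm16 mutant, against 19.5 in wild type. Fits with the block use rows already selected by the authors' threshold, so they cannot add genes. The alternatives planned for promoter peaks were not run. Depth is unknown, so no limit of detection can be given for genes at 0.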

Other observations

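Markers of other cell types were listed in small numbers. Over all genes tested, 12.7% were listed higher and 0.783% lower in prdm3 mutants. No change in any cell type is read from these counts. In prdm3 mutants, 1 of 6 glial markers (sox2) was higher, with 16.4 to 21.4 FPKM in the mutant and 8.97 to 11.2 FPKM in wild type. Of 7 neuronal markers, 1 was higher and 1 lower, and 1 of 4 otic (oc90), 1 of 6 epidermal (krt91) and 1 of 5 muscle markers (tnnt3a, lower) were listed. In prdm16 mutants, 2 of 6 glial markers (fabp7a and foxd3) stood at 0 in both libraries, beside 23.9% of all genes tested. Their sum was 10.5 to 20.7 FPKM in wild type, and foxd3 was also counted among the neural crest markers. The neuronal marker isl1 and the blood marker hbbe1.1 were also at 0 in both prdm16 mutants, against 1.43 to 1.91 FPKM and 19.3 to 24.0 FPKM in wild type. No endothelial marker was listed in either table (0 of 4), and pigment, otic, epidermal, muscle and lens markers were not listed in the prdm16 table.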
